A study of Mus musculus with 24 samples.

Results

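The gene products described here work at the apical face of intestinal epithelial cells, and 4 genes make up the set, Mep1a, Clic5, Myo15b and Clca4b. The genes were chosen by name from the 82 genes that appear in any of the 4 tables the authors deposited, each of which lists the genes that passed the authors' test of Smarcad1 knockout (KO) against wild type (WT) in 1 sorted cell population. Mep1a, Clic5 and Myo15b were listed in the table of colonocytes, and Clca4b in those of stem cells and transit amplifying cells. The measured values of these comparisons were thus part of how the genes were chosen, and their KO minus WT differences are given as a description, with no test.

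The mRNA of sorted mouse intestinal epithelium was sequenced in 24 libraries, 3 in each of 8 groups. KO and WT mice were each represented by stem cells of the small intestine (ISC), by transit amplifying (TA) progenitors, by villus enterocytes (AE) and by colon epithelial cells (CO). ISC and TA were taken as crypt cells with high and medium GFP, and AE and CO as Epcam-high cells without the endothelial marker CD31 and the leukocyte marker CD45. The labels named C57BL/6 mice with an Lgr5-GFP reporter for all 24 libraries, and no treatment. In the KO, Cre driven by the Villin promoter, which is active in the epithelium of the small intestine and colon, removed loxP-flanked exons of Smarcad1, a chromatin remodeler of the SNF2 family. The floxed line came from a single embryonic stem cell clone. The animals' age is not given in the sources used here, and the labels do not say whether the 3 libraries of a group came from separate mice.

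Each table gives 1 value per gene and group, the authors' value of normalised reads on the log2 scale for the 3 libraries together. No value per library is in the tables, so no SD, interval or test could be computed for any level or difference below, and sequencing depth is not known. Whether 2 neighbouring levels in an order differ by more than the replicate spread could therefore not be judged. A gene counts here as listed in a population where the authors' false discovery rate was under 0.1, which is the only information that rests on replicates. Smarcad1 itself was at 4.85 in KO ISC against 5.62 in WT ISC, and it was lower in KO by 0.60 to 0.88 log2 units across the 4 populations. It is listed in TA and CO and not in ISC or AE. The value counts all exons of Smarcad1, of which only the loxP-flanked ones are removed, so it does not measure the functional product that remains. The study reported that no Smarcad1 protein could be detected after this deletion. The stem cell marker Ascl2 had WT levels of 6.05 (ISC), 4.24 (TA), -0.18 (AE) and 3.84 (CO), an order that follows the labels of the small intestinal populations. This order does not measure purity. The Paneth cell products Lyz1 (9.69) and Itln1 (8.97) had the highest levels of all 82 genes in WT ISC, before any division by exon length.

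The brush border is a dense array of microvilli that carries the digestive enzymes, channels and transporters of absorptive cells. Bundled actin fills each microvillus, myosins and membrane linkers hold it to the plasma membrane, and protocadherins join the tips of neighbouring microvilli. The border is built as cells leave the crypt and mature, and enterocytes of the small intestine and colonocytes carry different sets of enzymes and transporters in it.

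Mep1a encodes the alpha subunit of meprin, a zinc metalloprotease that is secreted or held at the apical membrane. The gene (ENSMUSG00000023914) lies on the minus strand at chr17:43474324-43502812 of GRCm38. Clic5 encodes a chloride intracellular channel protein that associates with the actin cytoskeleton and with ezrin in microvilli. The gene (ENSMUSG00000023959) lies on the plus strand at chr17:44188572-44280168, 685759 bp from Mep1a. There are 11 annotated genes between them, of which 0 were listed in any table. Myo15b encodes an unconventional myosin related to the stereocilia motor Myo15a. The gene (ENSMUSG00000034427) lies on the plus strand at chr11:115858406-115892603 and shares 9 bp of exon with Recql5, a helicase gene on the opposite strand. Clca4b encodes a member of the calcium-activated chloride channel regulator family of secreted and membrane-bound proteins. The gene (ENSMUSG00000074195) lies on the minus strand at chr3:144910921-144932529. All 4 genes are annotated as protein-coding.

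The 250 bases before the RefSeq start of each gene (GRCm38.p6) are printed because 3 of the genes were lower together in KO colonocytes and the other was not. Both strands were searched for TATAAA, which is bound near many starts, for GGGCGG, which Sp1 binds, and for letters that intestinal factors of the HNF4, CDX and GATA families bind, namely CAAAGTNCA for HNF4, TTTATNG for CDX and AGATAA for GATA factors. N stands for any base, and capitals mark the matches. The windows are chr17:43502774-43503023 on the minus strand for Mep1a, chr17:44188322-44188571 on the plus strand for Clic5, chr11:115857675-115857924 on the plus strand for Myo15b and chr3:144932530-144932779 on the minus strand for Clca4b.
Mep1a: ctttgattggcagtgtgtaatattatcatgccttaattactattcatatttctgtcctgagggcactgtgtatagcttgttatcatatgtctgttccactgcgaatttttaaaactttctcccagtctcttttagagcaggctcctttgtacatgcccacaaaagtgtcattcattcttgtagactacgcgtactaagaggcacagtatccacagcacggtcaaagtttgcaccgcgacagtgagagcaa
Clic5: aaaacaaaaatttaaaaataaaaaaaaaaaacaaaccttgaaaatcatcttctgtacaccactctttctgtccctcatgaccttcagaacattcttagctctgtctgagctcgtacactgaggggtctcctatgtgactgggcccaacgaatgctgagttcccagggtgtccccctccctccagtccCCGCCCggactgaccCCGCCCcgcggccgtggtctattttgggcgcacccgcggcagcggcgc
Myo15b: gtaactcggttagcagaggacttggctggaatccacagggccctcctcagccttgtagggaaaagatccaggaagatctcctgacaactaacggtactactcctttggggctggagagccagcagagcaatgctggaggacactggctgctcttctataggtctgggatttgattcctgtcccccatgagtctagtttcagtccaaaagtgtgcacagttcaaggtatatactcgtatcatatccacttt
Clca4b: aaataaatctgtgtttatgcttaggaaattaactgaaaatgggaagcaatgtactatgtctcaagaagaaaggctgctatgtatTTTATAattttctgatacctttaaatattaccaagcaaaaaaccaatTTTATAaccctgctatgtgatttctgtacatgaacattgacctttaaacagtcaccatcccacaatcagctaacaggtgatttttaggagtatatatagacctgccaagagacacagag
The RefSeq start of Myo15b lies 481 bp before the start of the gene in the deposited tables, so its window lies upstream of that start. The RefSeq start of Mep1a lies 39 bp inside the gene as deposited, so the last 39 bases of its window fall within the gene.

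The windows differed in base composition. Clic5 held 13 CpG dinucleotides, Mep1a 6, Myo15b 3 and Clca4b 0, against a median of 6 in the same window of 32851 RefSeq promoters. The share of G and C was 52.8% for Clic5, 49.6% for Myo15b, 41.6% for Mep1a and 33.2% for Clca4b, and the median of all promoters was 52.4%. Clic5 held 2 matches to GGGCGG on the minus strand, a motif in 32.7% of all promoters. Clca4b held 2 matches to TATAAA on the minus strand, a motif in 12.4% of all promoters. The HNF4, CDX and GATA letters were found in none of the 4 windows, and in 1.19%, 9.81% and 9.99% of all promoters. The 3 genes that were lower in KO colonocytes shared none of the motifs searched. No motif was in more than 32.7% of all promoters, so the lack of a shared one says little about the colon. A match or its absence describes these letters in this window only.

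In WT mice all 4 genes had their highest level in villus enterocytes. Of all 82 listed genes 47.6% did so. With each group centred on the median of all listed genes, Mep1a was no longer highest there (CO minus AE of 0.0031), nor was Clca4b (AE minus ISC of -0.073). Mep1a was at 5.72 in WT ISC, 5.43 in WT TA, 7.92 in WT AE and 7.63 in WT CO. Clic5 was at 4.95, 6.22, 8.77 and 6.43 in the same order. These are the 2 genes of chromosome 17, and they parted in the colon, where CO minus AE was -0.29 log2 units for Mep1a and -2.34 for Clic5. Myo15b was at 7.49 in WT ISC, 8.20 in WT TA, 10.76 in WT AE and 9.002 in WT CO. Clca4b was at 8.48 in WT ISC, 7.78 in WT TA, 10.16 in WT AE and 1.71 in WT CO. The colon level of Clca4b was 350.0-fold below its villus level, and lay 7.00 log2 units above the lowest value in that group.

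**Figure D1:**
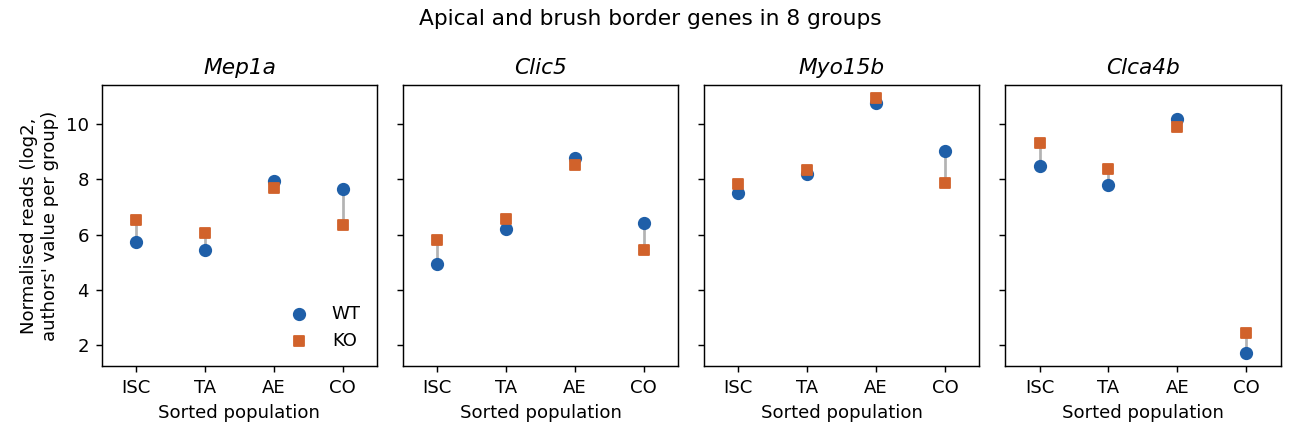
Authors' log2 value of normalised reads (vertical axis) for Mep1a, Clic5, Myo15b and Clca4b in the 4 sorted populations (horizontal axis), with a circle for WT, a square for KO and a grey line joining them; each point stands for 3 libraries and no error can be drawn. In CO the KO squares of Mep1a, Clic5 and Myo15b lie under the WT circles, whereas Clca4b is near 2 in both groups.

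The plot of levels by population shows that in WT the excess of the villus level over the crypt was of like size when counted from TA cells and not when counted from stem cells. WT AE minus WT TA was 2.49 log2 units for Mep1a, 2.55 for Clic5, 2.56 for Myo15b and 2.39 for Clca4b, and the median of all 82 genes was 1.54. All 4 genes were higher in AE than TA by at least 1 log2 unit, as were 54.9% of all listed genes. In KO the values were less alike, at 1.61 for Mep1a, 1.93 for Clic5, 2.62 for Myo15b and 1.51 for Clca4b. WT AE minus WT ISC was 3.82 for Clic5, 3.27 for Myo15b, 2.20 for Mep1a and 1.68 for Clca4b, with a median of 1.75 over all genes, so the value for Clca4b lay just under the median. Between ISC and TA the genes went opposite ways: Clic5 was higher in TA by 1.27 and Myo15b by 0.71, while TA minus ISC was -0.29 for Mep1a and -0.71 for Clca4b. The listed genes were selected for KO against WT, so these medians describe the listed genes and not the transcriptome. AE came from undigested villi and were gated by antibody, while ISC and TA came from enzyme-digested crypts and were gated by GFP. Cell type and preparation thus cannot be told apart in these contrasts.

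Levels of the 4 genes were ranked against each other after division by the length of the merged exons, in log2 units per kb. In WT AE this gave 8.58 for Clca4b, 7.46 for Myo15b, 6.13 for Mep1a and 5.64 for Clic5. In WT ISC the order was again Clca4b (6.90), Myo15b (4.19), Mep1a (3.93) and Clic5 (1.81). In WT CO Mep1a led with 5.84, followed by Myo15b with 5.70, Clic5 with 3.30 and Clca4b with 0.13. After this division Clca4b was thus first of the 4 in the villus and last in the colon. Undivided, Myo15b was first in WT AE (10.76) and in WT CO (9.002), and Clca4b was again last in WT CO (1.71). The division assumes that the deposited values had not been divided by length. The study describes expression levels of this kind as normalised to total reads and names RPKM, which is per length, for its fold changes. In KO AE 4 other listed genes, none of them in the set, shared the lowest value with exon lengths from 1987 to 14808 bp.

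In KO colonocytes Mep1a, Clic5 and Myo15b were lower than in WT, to between 41.6% and 49.9% of the WT level, and Clca4b was not. Mep1a was at 6.36 in KO CO against 7.63 in WT CO, a difference of -1.27 log2 units. Myo15b was at 7.87 against 9.002, a difference of -1.13. Clic5 was at 5.43 against 6.43, a difference of -1.003. These 3 genes are listed in the CO table, where 53.7% of the 82 genes are listed as lower in KO, and 37.8% of all genes had a difference of -1 or below. Among the 44 genes listed as lower in CO, 20 lay further below WT than Mep1a, 23 than Myo15b and 25 than Clic5, which puts the 3 genes near the middle. In bulk samples fewer cells of a type and less RNA per cell cannot be told apart.

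Clca4b in CO was at 2.46 in KO and 1.71 in WT, a difference of 0.74 that is not listed and has no test. On the linear scale these are 5.49 and 3.28 normalised reads, and after addition of 1 to both values the difference was 0.60. A difference above 0 in CO was found for 31.7% of all genes.

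In KO stem cells all 4 genes were higher than in WT, as were 73.2% of the 82 genes. Clca4b was at 9.32 in KO ISC against 8.48 in WT ISC, a difference of 0.83, and is listed there, as are 8.54% of all genes. Mep1a was at 6.52 against 5.72, a difference of 0.81, and Clic5 at 5.79 against 4.95, a difference of 0.85. Both differences were close in size to that of Clca4b, yet neither gene is listed in ISC, and the reason was not tested. Sorts held between 1000 and 80000 cells in ISC and between 1000 and 135000 in TA, and the number per library is not given. The KO level was 178% of WT for Clca4b, 175% for Mep1a and 179.9% for Clic5. Myo15b was at 7.83 against 7.49, a difference of 0.34 that equals the median over the genes not listed in ISC. A difference of at least 0.5 was found for 3 of the 4 genes and for 43.9% of all genes.

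In KO transit amplifying cells all 4 genes were again higher, as were 69.5% of all genes, and the differences were smaller. Mep1a was at 6.06 against 5.43, a difference of 0.63 that is not listed. Clca4b was at 8.36 against 7.78, a difference of 0.58 that is listed, as are 18.3% of all genes in TA. Clic5 differed by 0.35, from 6.22 to 6.57, and Myo15b by 0.12, from 8.20 to 8.32. The difference of Myo15b in TA was -0.04 once the values were centred on the genes not listed there, so its direction depends on the scaling. The difference in TA was smaller than that in ISC for each of the 4 genes, except that after the same centring Mep1a differed by 0.47 in ISC and 0.48 in TA.

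In villus enterocytes, where the 4 genes had their highest levels, none is listed, although 24.4% of all genes are. Mep1a was at 7.68 in KO against 7.92 in WT, a difference of -0.25. Clic5 was at 8.51 against 8.77 (-0.27) and Clca4b at 9.87 against 10.16 (-0.29). Myo15b stood apart in direction, at 10.94 against 10.76, a difference of 0.18. Differences below 0 were found for 3 of the 4 genes and for 59.8% of all genes, while a difference of -0.5 or below was found for 0 of the 4 and for 17.1% of all genes.

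**Figure D2:**
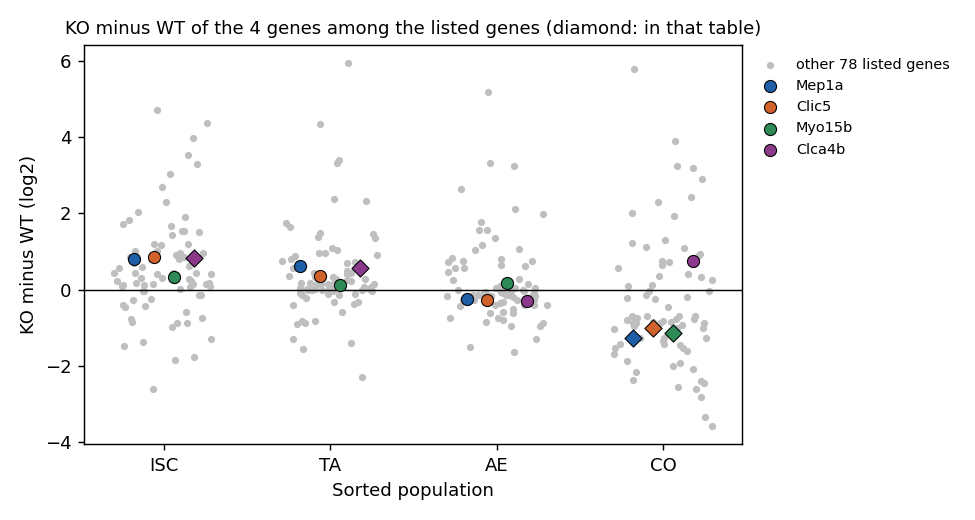
KO minus WT on the log2 scale (vertical axis) in each sorted population (horizontal axis) for the 4 genes in colour and the other 78 listed genes in grey, spread sideways to be seen; a diamond marks a gene listed in that population. The 4 genes lie above 0 in ISC and TA, between -0.29 and 0.18 in AE, and near -1 in CO except Clca4b.

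The median difference of the 4 genes was 0.82 (ISC), 0.47 (TA), -0.26 (AE) and -1.07 (CO), against 0.41, 0.18, -0.11 and -0.81 over all 82 genes. The plot of differences by population places the 4 genes inside the cloud of listed genes in each population. The pattern of Mep1a, Clic5 and Myo15b, higher in KO ISC and TA and lower in KO CO, was shared by 37.8% of all genes.

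The step from stem cell to enterocyte was smaller in KO than in WT for Mep1a, Clic5 and Clca4b, whose differences were above 0 in ISC and below 0 in AE. AE minus ISC went from 2.20 in WT to 1.15 in KO for Mep1a, from 3.82 to 2.71 for Clic5 and from 1.68 to 0.55 for Clca4b. For Myo15b it went from 3.27 to 3.11. The step was smaller by at least 1 log2 unit for 3 of the 4 genes and for 23.2% of all genes, and the median change over all genes was -0.35. Centred on the genes not listed in each population, an alternative added after the data were seen, the change was -0.55 for Mep1a, -0.61 for Clic5, -0.63 for Clca4b and 0.34 for Myo15b, and it reached -1 for 0 of the 4 genes and for 14.6% of all genes. These steps use the same group values as the differences above and are no second measurement. Within each genotype they also set digested crypt cells against undigested villus cells, so cell type and preparation cannot be told apart.

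Genes of the apical surface were taken from 3 lists of cytoskeletal genes, enzymes and transport genes, 57 genes in all, of which 7 are listed in any table. These 7 include the 4 genes of the set, which were themselves chosen from the listed genes. Of the 20 cytoskeletal and adhesion genes 3 are listed, Clic5, Myo15b and Cdhr2, a protocadherin of the links between microvilli. Of the 20 enzymes 2 are listed, Mep1a and Nt5e, the ectonucleotidase that makes adenosine from AMP. Of the 17 transport genes 2 are listed, Clca4b and Slc6a19, a transporter of neutral amino acids. The other 50 have no row in the tables and were not analysed here. Within the families of the 4 genes, Clca4b was the listed one of 7 Clca genes and Clic5 of 5 Clic genes. The share of listed genes among all measured genes was not computed, so these counts are no result about apical genes.

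Cdhr2 and Nt5e followed the direction of Mep1a, Clic5 and Myo15b in the colon, and Slc6a19 that of Clca4b. Each of these other genes is listed in CO only, so its colon difference is the reason it has a row. Of the genes listed in CO 44 are lower in KO and 12 higher, so the shared directions are a description only. Cdhr2 was at 7.79 in KO CO against 8.64 in WT CO (-0.86, listed). In the small intestine it differed by 0.60 (ISC), 0.26 (TA) and -0.13 (AE), none of them listed. Nt5e was at 3.09 in KO CO against 4.37 in WT CO (-1.27, listed), and it differed by -0.12 in TA and -0.34 in AE. Its difference of 1.004 in ISC rests on 0.573 against 0.286 normalised reads on the linear scale and was 0.29 after addition of 1 to both values. Slc6a19 was at 1.62 in KO CO against -0.81 in WT CO, higher by 2.42 and listed. Its WT villus level was 9.43, so Slc6a19 was, as Clca4b was, low in WT colon and high in the villus. Slc6a19 differed by 1.66 in ISC, 0.50 in TA and -0.07 in AE.

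**Figure D3:**
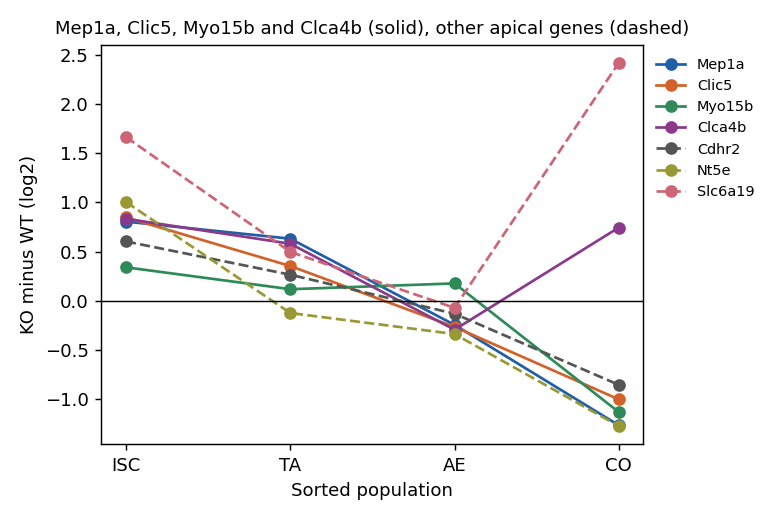
KO minus WT on the log2 scale (vertical axis) in the 4 sorted populations (horizontal axis) for Mep1a, Clic5, Myo15b and Clca4b (solid) and for Cdhr2, Nt5e and Slc6a19 (dashed); lines only join the points of a gene. All 7 genes lie above 0 in ISC and none exceeds 0.18 in AE, while in CO 5 genes lie at or below -0.86 and Clca4b and Slc6a19 lie above 0.

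The villus and colon levels of these genes were compared across all listed genes, with a limit chosen after the values were seen. In WT 10 genes were more than 4 log2 units lower in CO than in AE, and 2 of them were at the lowest value in both CO groups. Of the remaining 8 genes 4 were higher in KO CO, which were Clca4b (0.74), Slc6a19 (2.42), and the Paneth cell products Lyz1 (3.20) and Itln1 (0.64). The other 4 were lower, which were Apob (-0.88), the MHC class II invariant chain Cd74 (-2.55), Erich4 (-3.34) and the MHC class I gene H2-Q1 (-3.57). Of these 8 genes Clca4b and Itln1 are not listed in CO. A low colon level next to the villus thus came with either direction.

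**Figure D4:**
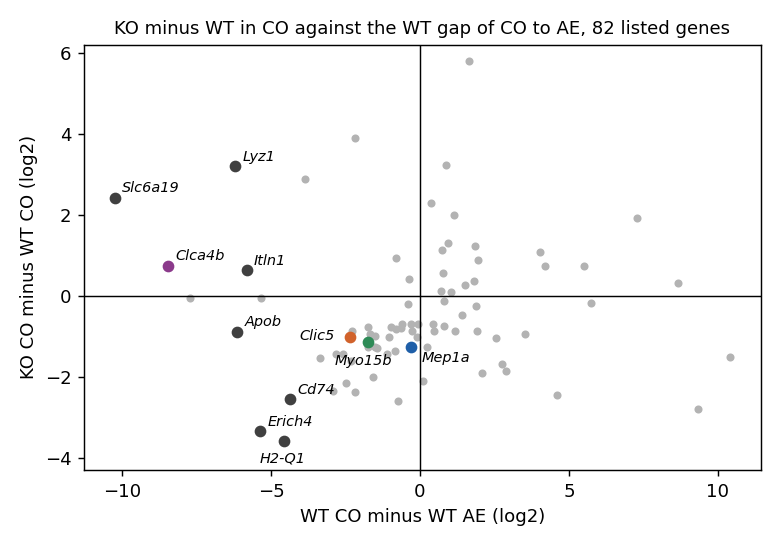
KO CO minus WT CO (vertical axis, log2) against WT CO minus WT AE (horizontal axis, log2) for the 82 listed genes, with named genes labelled and the 4 genes of the set in colour; both axes contain the WT CO value. The genes more than 4 units left of 0 lie on both sides of the horizontal line, and Mep1a, Clic5 and Myo15b lie between -2.34 and -0.29 on the horizontal axis.

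Across the 8 groups Clic5 and Myo15b had the most alike patterns of the 4 genes, with a Pearson r of 0.974. Mep1a and Clic5 had an r of 0.759, Mep1a and Myo15b one of 0.836. For Clca4b r was 0.438 with Clic5, 0.329 with Myo15b and -0.02 with Mep1a. Without the 2 CO groups, an alternative added after the data were seen, r over 6 groups was higher for every pair. For Clca4b it was 0.967 with Mep1a, 0.738 with Clic5 and 0.780 with Myo15b. Mep1a had an r of 0.883 with Clic5 and 0.906 with Myo15b, and Clic5 and Myo15b had one of 0.980. The colon values thus lowered r most for the pairs with Clca4b. The points of each r share their libraries and scaling, are 4 populations in 2 genotypes and are given as a description only.

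The listed genes with the pattern most like each gene were taken by the same measure. For Mep1a these were the interferon-induced gene Rsad2 (r = 0.968), the laminin subunit Lama3 (0.966) and the myotubularin-related Mtmr11 (0.955). For Clic5 they included the cytochrome P450 Cyp2c65 (0.990) and the receptor Lrp1 (0.982). Those of Myo15b included Lrp1 (0.991) and the monocarboxylate transporter Slc16a5 (0.989), so Lrp1 was close to both Clic5 and Myo15b. Clca4b had the phosphatase Ptpn22 (0.977), the apolipoprotein Apob (0.889) and Cd74 (0.864). Without the CO groups, in both of which Ptpn22 was at the lowest value, r with Clca4b was 0.822 for Ptpn22, 0.913 for Apob and -0.26 for Cd74, so the likeness to Cd74 rests on the colon.

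The reads behind Clca4b are less certain than those of the other genes, because its coding sequence is 96.0% identical to that of the neighbouring Clca4a over 2775 bp. Only reads that mapped to 1 place were counted. Of the 50-base windows of the merged Clca4b exons 24.8% occur in another annotated gene, against 0.137% for Clic5 and 0 for Mep1a and Myo15b. The longest stretch of coding sequence shared with Clca4a is 168 bases in exons 8 to 9 of 14, within chr3:144919283-144921930 on the minus strand (GRCm38), and reads inside it cannot be placed in either gene alone.
Clca4b and Clca4a: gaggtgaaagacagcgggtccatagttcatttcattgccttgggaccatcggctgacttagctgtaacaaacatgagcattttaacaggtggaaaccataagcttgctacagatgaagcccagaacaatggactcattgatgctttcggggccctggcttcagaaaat
Clca4a has no row in the tables, and whether its level differed was not tested.

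Markers of other cell types differed between KO and WT in some of the same populations. Of 41 marker genes 4 are listed, and the other 37 have no row. The share of listed genes among all measured genes was not computed, so these counts are a description only. They were Lyz1 and Itln1 of 7 Paneth cell genes, Cd74 of 7 immune genes and Ascl2 of 5 stem cell genes, with 0 of 7 goblet, 0 of 5 enteroendocrine, 0 of 4 tuft and 0 of 6 endothelial and stromal genes. In ISC, where Clca4b, Mep1a and Clic5 were higher, Lyz1 was higher by 1.20 and Itln1 by 1.72, neither of them listed there. Their summed linear level, not divided by exon length, was 3550 normalised reads in KO against 1329 in WT. In TA the sum was 2861 against 987. In AE it was 507 against 131, and in CO 10.3 against 2.04. Lyz1 is listed in AE and CO, Itln1 is listed in TA and AE, and the sums have no test. In CO, where Mep1a, Clic5 and Myo15b were lower, Ascl2 was higher by 1.08 and Cd74 differed by -2.55. In ISC, TA and AE the differences were -0.45, 0.17 and -0.05 for Ascl2 and 0.19, 0.69 and -1.64 for Cd74, none of them listed. The part of these cells in the differences of the 4 genes was not tested. The study reported both Lyz1 and Itln1 among genes raised in several of its data sets after Smarcad1 deletion, organoids included. It also named Lyz1 among genes with more accessible chromatin and less of the repressive histone mark H3K9me3 in KO small intestine. Whether the sums of Lyz1 and Itln1 follow the number of Paneth cells was not tested.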

How the data were processed

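Reads were trimmed by the authors (Trim Galore 0.4.4), aligned to GRCm38 with HISAT2 2.1.0, kept uniquely mapped reads, and counted them in SeqMonk over the exons of merged transcripts. Per the labels, libraries were poly(A) selected and directional. Whether counting used strand is not stated. The authors ran DESeq2 on KO against WT within each population. The deposited tables hold genes with an FDR, an adjusted p-value, under 0.1, and 1 log2 value of normalised reads per gene and group over 3 libraries. The study's text describes such levels as averages normalised to total reads and names RPKM for fold changes. The order of averaging and log transformation is not given in the sources used here. The FDR column was not used beyond the fact of listing, since it holds the authors' own test.

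Differences of the log2 group values were computed for all 82 genes in Python 3.11.15 with pandas 2.3.3 and numpy 2.4.6. As the tables give no values per library, the planned description replaced any test. The scripts were tested on simulated data. Exon lengths, overlaps and windows of 50 bases came from GENCODE annotation of GRCm38, and promoters from RefSeq GRCm38.p6. Coding sequences were aligned with Biopython 1.88. The genes named were the 4 of the set, the 3 listed genes of highest Pearson r with each over the 8 groups, listed genes of the apical and marker lists, and Smarcad1. A gene that this rule names is not reported here. Apob is among these, and H2-Q1 and Erich4 were added after their values were seen. The 4 genes and the lists were chosen with earlier results of these data known. Tried alternatives were a pseudocount of 1 on the linear scale, raising low values to 0.1, centring, KO groups in place of WT for the cell type contrasts, a difference limit of 0.5 in place of 1, Spearman rho, a filter on low values and, added later, leaving out the CO groups, centring of the step from ISC to AE and a pseudocount for Nt5e in ISC.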

Additional observations from a re-analysis of the deposited data

How the results depend on the processing

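Centred on the median of genes not listed in a population (shifts of 0.34, 0.15, -0.16 and 0.11 for ISC, TA, AE and CO), KO minus WT in the same order was 0.47, 0.48, -0.085 and -1.38 for Mep1a, 0.51, 0.20, -0.11 and -1.12 for Clic5, 0, -0.036, 0.34 and -1.25 for Myo15b, which is itself the median gene in ISC, and 0.49, 0.43, -0.13 and 0.63 for Clca4b. The direction turned for Myo15b in TA, the order of ISC and TA turned for Mep1a, and the KO minus WT change of AE minus ISC turned for Myo15b (0.34). With a pseudocount of 1 on the linear scale Clca4b in CO was 0.60, the other 15 differences moved by less than 0.1, and with low values raised to 0.1 all 16 did. With WT levels centred on the median of all listed genes, AE minus ISC of Clca4b was -0.073 and CO minus AE of Mep1a 0.0031, both turned in sign. With KO in place of WT groups 15 of 16 cell type contrasts moved by 0.1 or more and 0 turned in sign. With a limit of 0.5 in place of 1, the genes higher in KO numbered 36 in place of 22 in ISC, 25 in place of 14 in TA, 22 in place of 13 in AE and 20 in place of 13 in CO, and the lower ones 13 in place of 6, 9 in place of 4, 14 in place of 3 and 49 in place of 31. With Spearman rho or a filter on low values at least 2 of the 3 genes most like each gene were kept, and without the CO groups 1 was kept for Mep1a, Clic5 and Myo15b and 0 for Clca4b. No paired analysis was possible because the tables hold only group values, and no library could be left out for the same reason. Depth is unknown, so the counting error behind low levels, such as those of Clca4b in CO and Nt5e in ISC, could not be given.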
